A study of Mus musculus with 9 samples.

Results

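The 8 genes described here are *Cdkn1a*, *Mdm2*, *Ccng1*, *Bax*, *Bbc3*, *Bcl2*, *Bcl2l1* and *Mcl1*, a set of p53 targets and regulators of apoptosis that was listed by gene symbol. All 8 were found among the 15105 genes with recovered reads, and all 8 were tested in each comparison. They were measured by RNA sequencing in NRVMs, which are ventricular cardiomyocytes isolated from newborn Sprague-Dawley rats (1 or 2 days old) and kept in primary culture. The cells of every group were infected with an adenovirus at a multiplicity of 50 and collected 48 h later. The virus carried lacZ (bacterial β-galactosidase, the control), the coding region of mouse Nrf1 or the coding region of mouse Nrf2, each in a CMV vector that also encodes a red fluorescent protein, and there were 3 libraries per group. No uninfected group was analysed here, and the CMV promoter is not restricted to cardiomyocytes. The labels do not say whether the libraries of a group came from separate cultures or isolations, so the p-values measure only the spread between these libraries.

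p53 is a transcription factor that is stabilised by DNA damage and other stresses, and it switches on genes for cell cycle arrest, DNA repair and apoptosis as well as *Mdm2*, which encodes the ubiquitin ligase that degrades p53 itself. The mitochondrial route of apoptosis is set by the balance of BCL2 proteins: BAX and BAK permeabilise the outer mitochondrial membrane, BCL2, BCL-xL and MCL1 hold them in check, and BH3-only proteins such as PUMA (the product of *Bbc3*) neutralise those guards. In the heart this route is best known for the loss of cardiomyocytes after ischemia and reperfusion or anthracycline treatment. Nrf1 and Nrf2 are related leucine zipper transcription factors that bind antioxidant response elements.

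The libraries held 7874461 to 9347199 reads on genes in the LacZ group, 8598394 to 10356188 in the Nrf1 group and 10197909 to 11960485 in the Nrf2 group. *Nfe2l2*, the gene for Nrf2, was read at 79249, 77916 and 68031 normalised counts in the Nrf2 libraries and at 3486, 3425 and 3513 in the LacZ libraries, a 21.6-fold ratio of the means, from reads of the rat gene together with those reads of the mouse transgene that aligned to the rat genome. *Nfe2l1*, the gene for Nrf1, was not analysed here, so the overexpression of Nrf1 was not checked. Every library expressed the cardiomyocyte markers (*Tnnt2*, *Myh6*, *Actn2* and others), but the cultures also held fibroblast RNA, and the summed level of 8 fibroblast markers was 114770 to 120240 in the LacZ libraries against 29075 to 31407 in the Nrf1 libraries of the same table. Most of the LacZ sum came from 2 collagen genes, *Col1a1* and *Col3a1*. Their group means were 86236 and 24974 with LacZ against 22603 and 5935 with Nrf1. In the table for Nrf2 and LacZ the fibroblast sum was 63789 to 69035 with Nrf2 and 122370 to 128709 with LacZ. In bulk samples such as these, fewer cells of a type and less RNA per cell cannot be told apart.

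Compared with LacZ, 5 of the 8 genes were lower with Nrf1 and 0 were higher (limma, adjusted p under 0.05). Across all 13631 genes tested in that comparison 28.3% were lower, 28.9% were higher and 57.2% were called in either direction. This was 3944 higher and 3851 lower, and 3344 higher and 4379 lower when the libraries were scaled by total reads. The 5 genes were the p53 targets *Cdkn1a*, *Mdm2*, *Ccng1*, *Bax* and *Bbc3*, whereas the pro-survival genes *Bcl2*, *Bcl2l1* and *Mcl1* did not pass the test. With Nrf2, 5 genes were lower than in LacZ and 0 were higher, against 21.8% lower, 24.7% higher and 46.5% called among 13828 genes, and the 5 were *Mdm2*, *Bax*, *Bbc3*, *Bcl2l1* and *Mcl1*. Over all genes this was 3417 higher and 3013 lower, and 2649 higher and 4063 lower when the libraries were scaled by total reads, which left the calls of the 8 genes as they were. The study's cutoff was 1.5-fold together with a false discovery rate. At 1.5-fold between the group means alone, 2 genes passed with Nrf1 (*Mdm2* and *Bbc3*, against 39.3% of all genes listed) and 1 with Nrf2 (*Bbc3*, against 31.1%). All 8 genes had a mean of at least 10. Of all genes with such a mean in either group, 3432 of 11453 passed with Nrf1 and 2408 of 11630 with Nrf2. Every library with the factor lay outside the range of the LacZ libraries for 5 genes with Nrf1, all of them lower (63.1% of all genes did not overlap, 31.8% lower and 31.3% higher). With Nrf2 this held for 4 genes that were lower and 2 that were higher (55.5% of all genes, 26.9% lower and 28.6% higher). Both comparisons use the same LacZ libraries and are therefore not independent of each other.

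**Figure D1:**
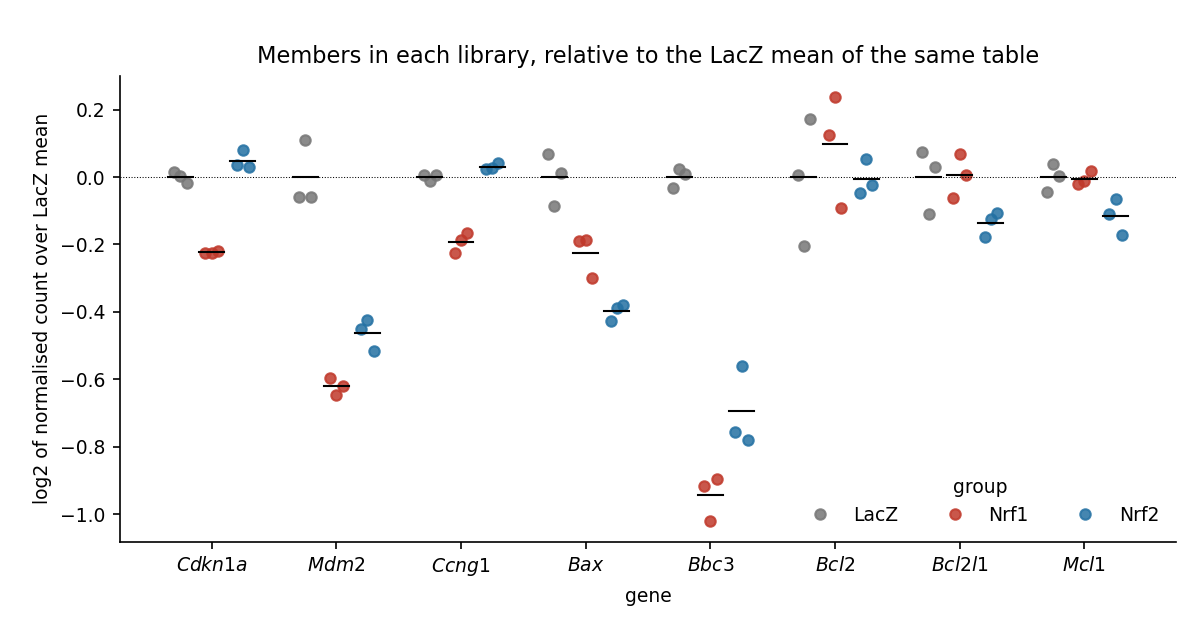
Each point is 1 library: the log2 of its normalised count over the LacZ group mean of the same table (vertical axis), for the 8 genes (horizontal axis) in the LacZ, Nrf1 and Nrf2 groups. Short black lines are the group means. All Nrf1 and Nrf2 points of *Mdm2*, *Bax* and *Bbc3* lie below the LacZ points, and for *Bcl2* the 3 groups overlap.

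In the values that follow, the libraries of a group are given from the deepest to the shallowest, and normalised counts are comparable only within a table, so LacZ appears at different levels beside Nrf1 and beside Nrf2. Log2 fold changes are given with their standard error, and adjusted p-values are those of limma with Benjamini-Hochberg adjustment over all genes tested.

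*Cdkn1a* encodes p21, the inhibitor of cyclin-dependent kinases through which p53 arrests the cell cycle. It was read at 12240, 12244 and 12288 normalised counts in the Nrf1 libraries and at 14458, 14345 and 14131 in the LacZ libraries. The Nrf1 libraries lay close together and below all LacZ libraries, a fall of 14.4% in the group mean (log2 fold change -0.22 ± 0.03, adjusted p = 9.13e-06). In the table for Nrf2 the values were 15675, 16153 and 15592 with Nrf2 and 15416, 15355 and 15078 with LacZ. The Nrf2 libraries all lay above the LacZ libraries here, yet the difference did not pass the test (0.05 ± 0.03, 95% interval -0.02 to 0.11, adjusted p = 0.218), and its sign changed when the libraries were scaled by their total reads (-0.04).

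*Mdm2* showed the clearest fall among the p53 targets of the arrest and feedback arm. Its normalised counts were 4414, 4266 and 4345 with Nrf1 against 6418, 7207 and 6414 with LacZ. The groups were well separated, although the second LacZ library stood above the other two, and the group mean was 35% lower (-0.62 ± 0.04, adjusted p = 1.28e-08). With Nrf2 the counts were 5221, 5316 and 4988 against 6843, 7714 and 6844 in LacZ, which is 27.5% lower (-0.46 ± 0.05, adjusted p = 1.95e-06). Without the second LacZ library the log2 fold changes were -0.56 for Nrf1 and -0.40 for Nrf2, with adjusted p-values of 6.76e-09 and 2.31e-06. That library also had the highest summed level of 6 leukocyte markers, 1498 against 996.6 and 1096 in the other LacZ libraries. The Nrf1 libraries held 657.5 to 726.9. Its summed fibroblast markers were the highest of the LacZ libraries (120240 against 114770 and 115820). Its summed cardiomyocyte markers were the lowest of them (89183 against 98677 and 92308). The part of these differences in the *Mdm2* values was not tested.

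*Ccng1* encodes cyclin G1, a p53 target that recruits a phosphatase to MDM2. It was read at 32035, 32873 and 33319 normalised counts with Nrf1 and at 37596, 37094 and 37556 with LacZ. All Nrf1 libraries lay below all LacZ libraries, with a group mean 12.5% lower (-0.19 ± 0.03, adjusted p = 3.96e-05). With Nrf2 the counts were 40666, 40672 and 41154 against 40085, 39707 and 40074 in LacZ. As for *Cdkn1a*, the Nrf2 libraries sat just above the LacZ libraries without passing the test (0.03 ± 0.03, 95% interval -0.03 to 0.09, adjusted p = 0.405), and the sign changed under scaling by total reads (-0.05).

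*Bbc3* had the largest log2 fold change of the 8 genes in both comparisons with LacZ. Its product PUMA is a BH3-only protein that binds all of the pro-survival BCL2 proteins. The Nrf1 libraries gave 372.4, 346.9 and 378.0 normalised counts and the LacZ libraries 687.1, 715.4 and 707.2. No library of one group came near the other, and the group mean was 48.0% lower with Nrf1 (-0.94 ± 0.06, adjusted p = 2.22e-09). With Nrf2 the values were 444.3, 509.7 and 437.7 against 732.6, 765.8 and 754.6 in LacZ. The middle Nrf2 library was the highest of its group but remained below every LacZ library, and the mean was 38.2% lower (-0.70 ± 0.06, adjusted p = 6.87e-07).

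*Bax* encodes the pore-forming effector of the mitochondrial route. Its counts were 1203, 1206 and 1116 with Nrf1 and 1440, 1293 and 1384 with LacZ. The groups did not overlap, and the mean was 14.4% lower with Nrf1 (-0.22 ± 0.05, adjusted p = 0.00128). With Nrf2 the counts were 1091, 1119 and 1128 against 1536, 1385 and 1477. This was a fall of 24.1% (-0.40 ± 0.05, adjusted p = 8.52e-06), and the groups were again separate.

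Among the 3 pro-survival genes, the values of *Bcl2* rested on few reads, with 324, 379 and 400 summed over the LacZ, Nrf1 and Nrf2 libraries. Its normalised counts were 122.0, 132.1 and 105.2 with Nrf1 and 112.6, 97.2 and 126.2 with LacZ. The groups overlapped, and the 95% interval of the log2 fold change ran from -0.18 to 0.37 (0.10 ± 0.13, adjusted p = 0.536). With Nrf2 it was read at 115.9, 124.1 and 117.8 normalised counts against 120.1, 104.1 and 134.7. The interval was -0.25 to 0.26 (0.00 ± 0.12, adjusted p = 0.987), so changes of *Bcl2* within these intervals remain possible.

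*Bcl2l1* encodes BCL-xL. Its counts of 1013, 1109 and 1063 with Nrf1 straddled those with LacZ, 1114, 980.6 and 1079, and the log2 fold change was 0.01 ± 0.05 (95% interval -0.11 to 0.12, adjusted p = 0.934), or -0.06 when the libraries were scaled by total reads. With Nrf2 the counts were 997.8, 1036 and 1050 against 1188, 1050 and 1152. The mean was 9.0% lower and just passed the test (-0.13 ± 0.05, adjusted p = 0.0460), although the highest Nrf2 library and the lowest LacZ library overlapped. This call was lost when any of the 3 Nrf2 libraries was left out (adjusted p = 0.167, 0.0917 and 0.0764), and without the deepest or the shallowest LacZ library (adjusted p = 0.162 and 0.136). Without the second LacZ library the log2 fold change was -0.19 (adjusted p = 0.00489). Under scaling by total reads, with all libraries, it was -0.22 (adjusted p = 0.00225).

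*Mcl1* encodes a short-lived BCL2 relative that cardiomyocytes need for survival. It was read at 2097, 2110 and 2153 normalised counts with Nrf1 and at 2065, 2185 and 2133 with LacZ. These values overlapped, and the 95% interval of the log2 fold change was -0.08 to 0.07 (-0.01 ± 0.04, adjusted p = 0.919). The log2 fold change was -0.07 when the libraries were scaled by total reads (adjusted p = 0.141). With Nrf2 the counts were 2105, 2170 and 2019 against 2202, 2339 and 2276, without overlap and 7.7% lower (-0.12 ± 0.04, adjusted p = 0.0325). The call was lost without the deepest or the shallowest Nrf2 library (adjusted p = 0.0843 and 0.144) and without the second or the third LacZ library (adjusted p = 0.0751 and 0.0830). Under scaling by total reads, with all libraries, the log2 fold change was -0.20 (adjusted p = 0.00128).

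**Figure D2:**
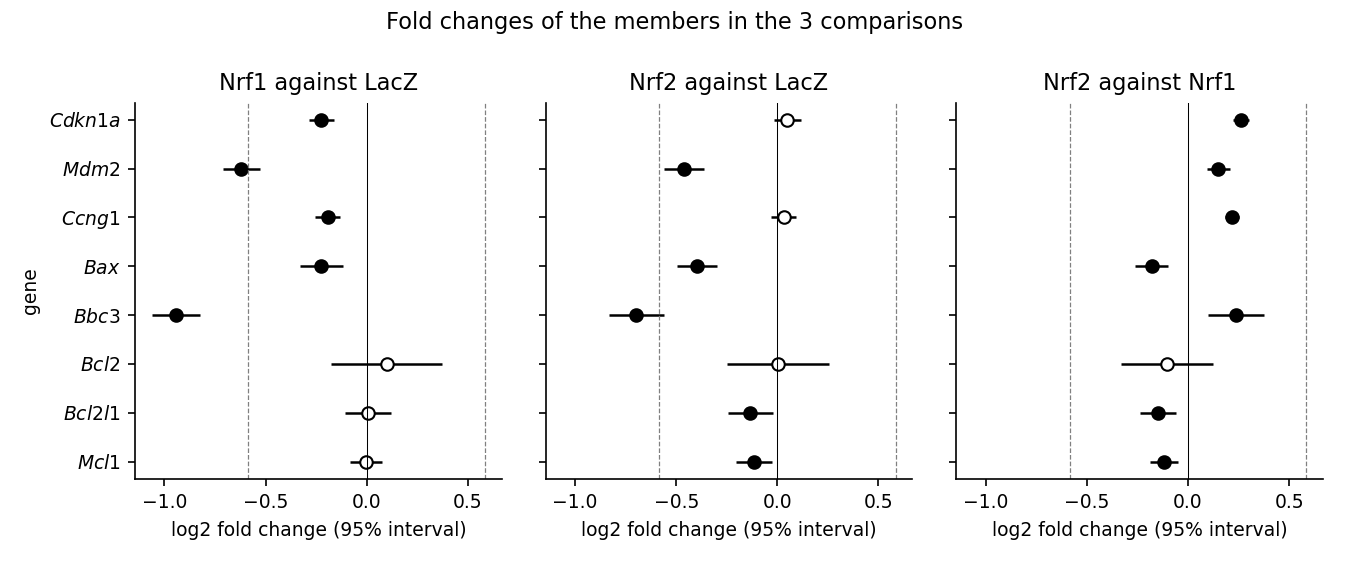
Log2 fold change (horizontal axis) of the 8 genes (vertical axis) in the 3 comparisons, with 95% intervals from limma as bars. Filled points passed an adjusted p of 0.05, open points did not, and dashed lines mark 1.5-fold. *Bbc3* lies farthest to the left against LacZ with both factors, and no gene passes 1.5-fold between Nrf2 and Nrf1.

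The direct comparison of Nrf2 with Nrf1 tests whether the responses differed, since it does not use the LacZ libraries. 7 of the 8 genes were called, 4 higher and 3 lower with Nrf2, against 49.7% of 13764 genes called, 25.2% higher and 24.5% lower, and 0 of the 8 exceeded 1.5-fold, against 28.8% of the genes listed. The libraries of the same 7 genes did not overlap, as was the case for 57% of all genes (29% higher and 28% lower). The 4 genes that were higher with Nrf2 than with Nrf1 were *Cdkn1a*, *Mdm2*, *Ccng1* and *Bbc3*. *Cdkn1a* had 16288, 16773 and 16212 normalised counts with Nrf2 and 13662, 13643 and 13720 with Nrf1, which is 20.1% higher (0.26 ± 0.02, adjusted p = 8.16e-09). *Ccng1* had 42257, 42234 and 42791 against 35757, 36630 and 37204, or 16.1% higher (0.22 ± 0.02, adjusted p = 2.11e-08).

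*Mdm2* was 11% higher with Nrf2 than with Nrf1 (5425, 5520 and 5186 against 4927, 4754 and 4852 normalised counts, log2 fold change 0.15 ± 0.03, adjusted p = 2.14e-04). *Bbc3* was 18.1% higher (461.7, 529.2 and 455.1 against 415.7, 386.5 and 422.0, log2 fold change 0.24 ± 0.07, adjusted p = 0.00654). For both genes all 3 Nrf2 libraries lay above all 3 Nrf1 libraries. *Bax* went the other way and was 11.8% lower with Nrf2, at 1134, 1162 and 1172 normalised counts against 1342, 1344 and 1246 (-0.18 ± 0.04, adjusted p = 0.00116).

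The pro-survival genes *Bcl2l1* and *Mcl1* were also lower with Nrf2 than with Nrf1. *Bcl2l1* was read at 1037, 1076 and 1092 normalised counts with Nrf2 and at 1131, 1235 and 1187 with Nrf1 (9.8% lower, log2 fold change -0.15 ± 0.04, adjusted p = 0.00709). *Mcl1* was read at 2187, 2253 and 2099 against 2341, 2351 and 2404 (7.8% lower, -0.12 ± 0.03, adjusted p = 0.00584). *Bcl2* was not separated, with values of 120.4, 128.9 and 122.4 against 136.2, 147.2 and 117.5 and a 95% interval of -0.33 to 0.13 (adjusted p = 0.455).

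Ratios between genes within a library do not depend on how the libraries are scaled. They were chosen after the values of the genes were seen and carry no test. For every 100 reads of the 3 pro-survival genes together, the LacZ libraries held 20.9, 21.9 and 21.2 reads of *Bbc3*, the Nrf1 libraries 11.5, 10.4 and 11.4, and the Nrf2 libraries 13.8, 15.3 and 13.7. The 3 groups did not overlap on this measure, with Nrf1 lowest. *Bax* stood at 43.8, 39.6 and 41.5 reads per 100 pro-survival reads in LacZ, 37.2, 36.0 and 33.6 in Nrf1 and 33.9, 33.6 and 35.4 in Nrf2, so both factors lay below LacZ and overlapped with each other.

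The p53 targets did not move in proportion either. For every 100 reads of *Cdkn1a* there were 44.4, 50.2 and 45.4 reads of *Mdm2* in the LacZ libraries, 36.1, 34.8 and 35.4 in the Nrf1 libraries and 32.0 to 33.3 in the Nrf2 libraries. From highest to lowest, the order of the groups on this ratio was LacZ, Nrf1, Nrf2, without overlap. Relative to *Ccng1* the Nrf1 and Nrf2 libraries overlapped, at 12.98 to 13.78 and 12.12 to 13.07 reads of *Mdm2* per 100. The LacZ libraries stood above both, at 17.07 to 19.43. For every 100 reads of *Bax* the LacZ libraries held 51.4 ± 3.8 reads of *Bbc3* (SD, n = 3), the Nrf1 libraries 31.2 ± 2.6 and the Nrf2 libraries 41.7 ± 3.5.

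**Figure D3:**
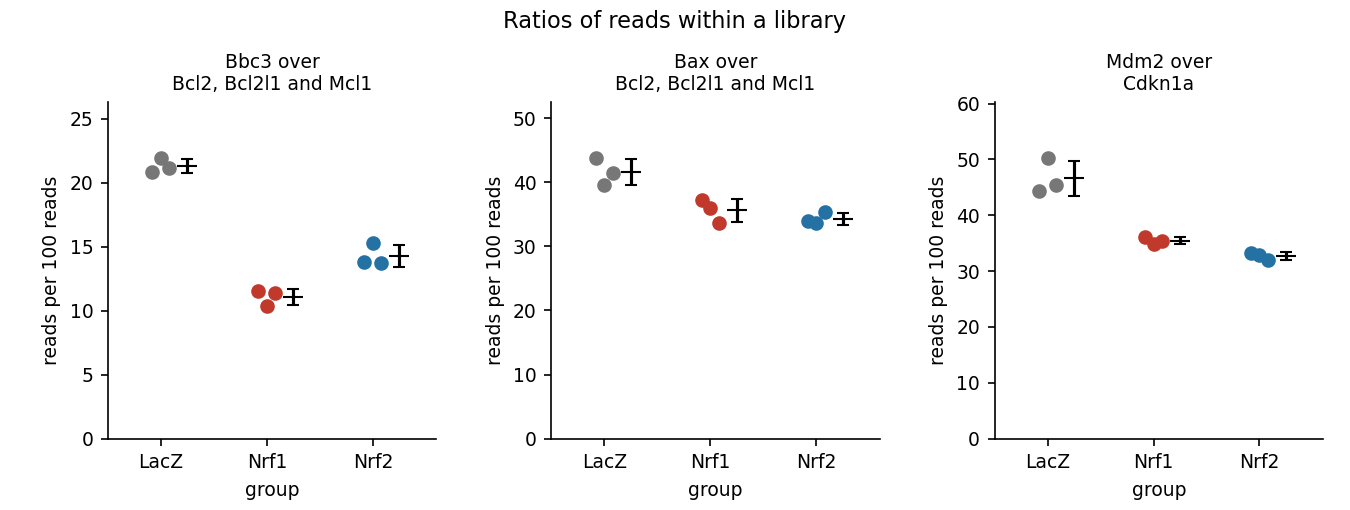
Reads of 1 gene per 100 reads of another gene or group of genes in the same library (vertical axes, starting at 0) for the LacZ, Nrf1 and Nrf2 groups (horizontal axes). Points are libraries, and the black marks beside them give the mean and SD (n = 3). *Bbc3* over the pro-survival genes was 20.9 to 21.9 in LacZ, 10.4 to 11.5 in Nrf1 and 13.7 to 15.3 in Nrf2.

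*Mdm4*, whose product binds p53 and represses its activity, was lower with Nrf2 (-0.45 ± 0.07, adjusted p = 2.12e-04) and not separated from LacZ with Nrf1 (-0.14 ± 0.07, adjusted p = 0.117). Between Nrf2 and Nrf1 it differed by -0.32 ± 0.06 (adjusted p = 2.31e-04).

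Of 12 tested genes in the list of p53 and its regulators, 2 were higher and 5 lower with Nrf1, and 3 were higher and 3 lower with Nrf2. With total-read scaling these counts became 1 higher and 6 lower, and 1 higher and 5 lower. Over all genes tested, 28.9% were higher and 28.3% lower with Nrf1, and 24.7% were higher and 21.8% lower with Nrf2. *Atm*, the kinase that signals DNA double-strand breaks to p53, was lower with Nrf1 (-0.33 ± 0.06, adjusted p = 1.64e-04) and also under Nrf2 (-0.32 ± 0.06, adjusted p = 4.25e-04). *Hipk2*, a kinase that phosphorylates p53, rose with Nrf1 from 620.0 to 943.4 in the group means (0.61 ± 0.06, adjusted p = 5.62e-07) and less with Nrf2 (0.21 ± 0.06, adjusted p = 0.00676). *Cdkn2a*, whose ARF product inhibits MDM2, was read at 35.6, 37.6 and 34.4 normalised counts with Nrf1 and at 98.4, 95.1 and 91.6 with LacZ (-1.39 ± 0.15, adjusted p = 1.25e-06). Its values with Nrf2 also lay below those with LacZ, without passing the test (-0.29 ± 0.12, adjusted p = 0.0578).

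A further 34 p53 targets of arrest, repair and apoptosis were listed, of which 30 were tested. With Nrf1, 18 were lower and 7 higher, with a median log2 fold change of -0.35 against -0.03 over all genes tested. With Nrf2, 18 were lower and 7 higher, with a median of -0.32 against 0.00 over all genes. The shares over all genes were 28.3% lower and 28.9% higher with Nrf1, and 21.8% lower and 24.7% higher with Nrf2. Scaling by total reads left 18 lower with each factor, with 6 higher for Nrf1 and 7 for Nrf2. The list thus held targets that moved in each direction, with more of them lower.

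Among those that were lower, *Pmaip1* encodes the BH3-only protein NOXA. It was read at 168.4, 187.2 and 185.8 normalised counts with Nrf1 and at 303.8, 348.7 and 290.5 with LacZ (-0.80 ± 0.09, adjusted p = 1.72e-06), and its log2 fold change with Nrf2 was -0.81 ± 0.09 (adjusted p = 2.99e-06). *Aen*, a nuclease induced by p53, fell with Nrf1 (-0.77 ± 0.05, adjusted p = 5.56e-09) and likewise with Nrf2 (-0.64 ± 0.05, adjusted p = 2.59e-07). *Phlda3*, an inhibitor of AKT signalling, fell with Nrf1 (-0.75 ± 0.04, adjusted p = 6.08e-10), and *Epha2*, an ephrin receptor, fell with Nrf2 (-0.74 ± 0.04, adjusted p = 4.55e-09). In the direct comparison *Gdf15*, a secreted stress cytokine, was higher with Nrf2 than with Nrf1 (0.41 ± 0.04, adjusted p = 6.96e-07). Its values against LacZ are not reported here.

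Targets that rose with Nrf1 included *Fdxr*, the mitochondrial ferredoxin reductase, at 108.7, 77.1 and 104.1 normalised counts against 36.9, 35.9 and 42.5 in LacZ (1.31 ± 0.17, adjusted p = 1.01e-05). *Aifm2*, which encodes the ferroptosis suppressor FSP1, rose from 174.3 to 414.9 in the group means (1.26 ± 0.09, adjusted p = 3.18e-08). *Tigar*, a fructose bisphosphatase that diverts glucose to the pentose phosphate pathway, rose with Nrf1 (0.82 ± 0.08, adjusted p = 9.79e-07) and also under Nrf2 (1.12 ± 0.08, adjusted p = 5.23e-08). With Nrf2 the largest rise of the list was that of the kinase gene *Plk3*, from 149.9 to 362.1 (1.28 ± 0.10, adjusted p = 1.48e-07), and *Rrm2b*, the p53-inducible subunit of ribonucleotide reductase, rose too (0.76 ± 0.15, adjusted p = 0.00105). Between Nrf2 and Nrf1, 11 targets were higher and 8 lower with Nrf2 (9 and 8 with total-read scaling). The shares over all genes were 25.2% higher and 24.5% lower. Among these targets *Xpc*, the sensor of nucleotide excision repair, was higher (0.65 ± 0.07, adjusted p = 1.46e-06).

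**Figure D4:**
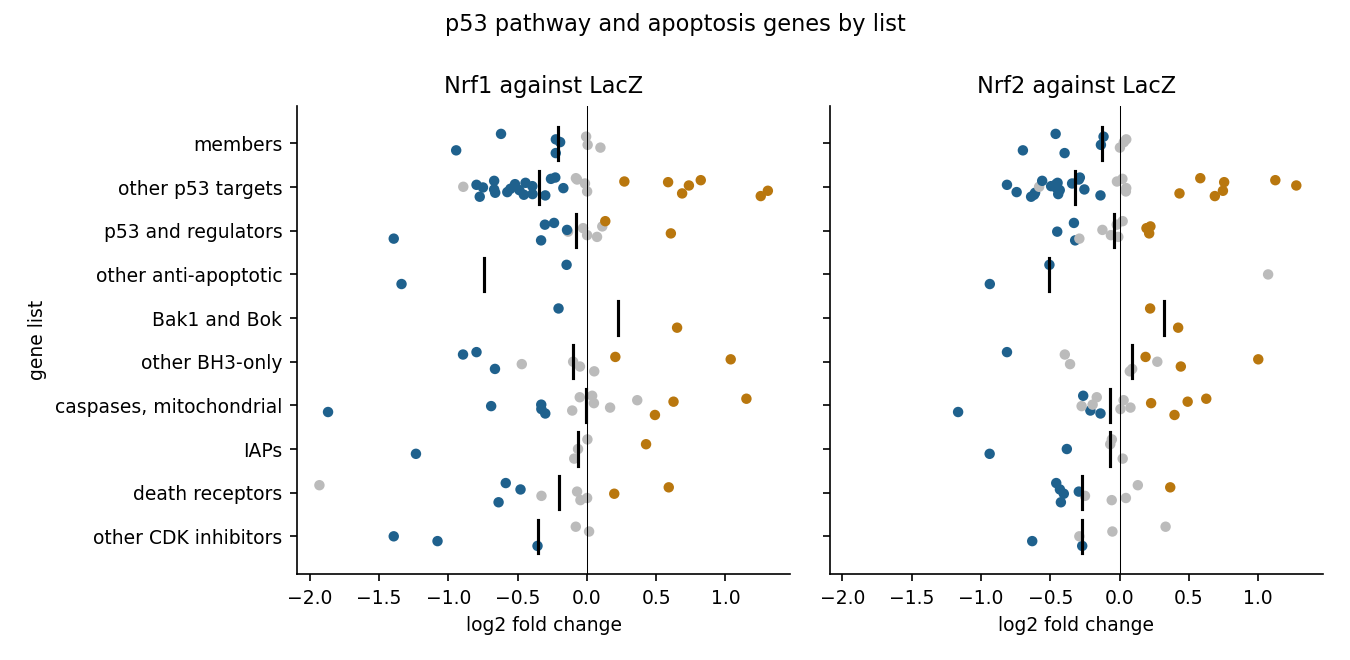
Log2 fold change against LacZ (horizontal axes) of every tested gene in 10 lists (vertical axis) for Nrf1 and Nrf2. Orange points were higher and blue points lower at an adjusted p of 0.05, grey points did not pass, and black lines are list medians. The other p53 targets had medians of -0.35 and -0.32.

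The remaining apoptosis genes did not share a direction. The 2 other effector genes are *Bak1* and *Bok*. *Bak1* was read at 1375, 1343 and 1412 normalised counts with Nrf1 and at 897.2, 787.3 and 950.7 with LacZ (0.65 ± 0.06, adjusted p = 2.69e-07), and it was also higher with Nrf2 (0.42 ± 0.06, adjusted p = 5.09e-05). *Bax* and *Bak1*, which encode related pore-forming proteins, thus lay on opposite sides of LacZ with each factor. *Bok* fell with Nrf1 (-0.20 ± 0.06, adjusted p = 0.00884) and rose with Nrf2 (0.22 ± 0.06, adjusted p = 0.0047), although with total-read scaling *Bak1* alone of the 2 was still called higher with Nrf2. The direct comparison separated Nrf2 from Nrf1 for *Bok* (0.42 ± 0.05, adjusted p = 6.88e-06).

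Of 9 other BH3-only genes, 2 were higher and 3 lower with Nrf1, and 3 were higher and 1 lower with Nrf2. With total-read scaling, 2 were higher and 1 lower with Nrf2. All genes tested gave 28.9% higher and 28.3% lower with Nrf1, and 24.7% higher and 21.8% lower with Nrf2. *Bnip3*, a mitophagy receptor of this family, rose with Nrf1 from 314.8 to 645.4 in the group means (1.04 ± 0.07, adjusted p = 1.19e-08) and with Nrf2 from 336.2 to 671.7 (1.00 ± 0.07, adjusted p = 8.45e-08). *Bcl2l11*, the gene for BIM, was read at 196.0, 171.6 and 180.4 normalised counts with Nrf1 and at 274.5, 313.8 and 280.4 with LacZ (-0.66 ± 0.08, adjusted p = 8.62e-06). With Nrf2 it was not separated from LacZ (0.09 ± 0.08, adjusted p = 0.363), and it was higher with Nrf2 than with Nrf1 (0.75 ± 0.08, adjusted p = 7.35e-07). *Bid*, which links death receptors to mitochondria, was higher with Nrf2 than with LacZ (0.44 ± 0.11, adjusted p = 0.00395).

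Of the 4 listed pro-survival genes other than *Bcl2*, *Bcl2l1* and *Mcl1*, 2 were tested with Nrf1 and 3 with Nrf2, and 2 were lower and 0 higher in each comparison. The shares over all genes were 28.3% lower and 28.9% higher with Nrf1, and 21.8% lower and 24.7% higher with Nrf2. *Bcl2l2*, the gene for BCL-w, was 634.6 against 702.3 with Nrf1 (-0.15 ± 0.05, adjusted p = 0.0217) and 527.8 against 750.0 with Nrf2 (-0.51 ± 0.05, adjusted p = 2.45e-06). *Bcl2a1*, a pro-survival gene best known from leukocytes, fell with Nrf1 (-1.34 ± 0.18, adjusted p = 1.92e-05) and likewise with Nrf2 (-0.94 ± 0.18, adjusted p = 6.69e-04). The leukocyte markers fell alongside it, 5 of 6 lower with each factor and 1 higher with Nrf1, and their part in the *Bcl2a1* values was not tested.

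Downstream of the mitochondria, 3 genes of the apoptosome and caspase list were higher and 5 lower with Nrf1 among 14 tested, and 4 were higher and 4 lower with Nrf2. With total-read scaling, 4 were higher and 5 lower with Nrf2. All genes tested gave 28.9% higher and 28.3% lower with Nrf1, and 24.7% higher and 21.8% lower with Nrf2. *Diablo*, whose product SMAC antagonises the inhibitors of apoptosis, rose with Nrf1 from 264.9 to 587.6 in the group means (1.15 ± 0.07, adjusted p = 3e-09) and with Nrf2 from 282.8 to 435.6 (0.63 ± 0.07, adjusted p = 8.57e-06). *Casp12*, a caspase linked to endoplasmic reticulum stress in rodents, fell with Nrf1 (-1.87 ± 0.13, adjusted p = 8.78e-09) and also under Nrf2 (-1.17 ± 0.10, adjusted p = 5.41e-07).

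In the inhibitor of apoptosis family, 1 of 5 genes was higher and 1 lower with Nrf1, and 0 were higher and 2 lower with Nrf2. With total-read scaling this became 1 higher and 2 lower with Nrf1, and 0 higher and 3 lower with Nrf2. *Birc6*, a giant ubiquitin ligase that binds caspases and SMAC, was the gene that rose with Nrf1, from 2958 to 3978 (0.43 ± 0.03, adjusted p = 5.69e-08). *Birc3*, an NF-κB target, fell with Nrf1 (-1.23 ± 0.23, adjusted p = 2.87e-04) and likewise with Nrf2 (-0.94 ± 0.20, adjusted p = 0.00142). In the death receptor list, 2 of 10 were higher and 3 lower with Nrf1, and 1 was higher and 5 lower with Nrf2. With total-read scaling, 1 was higher and 3 lower with Nrf1. For both lists, the shares over all genes were 28.9% higher and 28.3% lower with Nrf1, and 24.7% higher and 21.8% lower with Nrf2. *Tnfrsf1a*, the main receptor for TNF, was higher with Nrf1 (0.59 ± 0.05, adjusted p = 4.24e-08) and also under Nrf2 (0.37 ± 0.05, adjusted p = 1.61e-05). *Cflar*, the inhibitor of caspase 8 activation, was lower with each (-0.64 ± 0.09, adjusted p = 1.81e-05, and -0.42 ± 0.09, adjusted p = 0.00139).

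Beside *Cdkn1a*, 5 other inhibitors of cyclin-dependent kinases were tested, of which 0 were higher and 3 lower with Nrf1, and 0 higher and 2 lower with Nrf2 (3 with total-read scaling). All genes tested gave 28.9% higher and 28.3% lower with Nrf1, and 24.7% higher and 21.8% lower with Nrf2. *Cdkn1c*, the gene for p57, fell with Nrf1, at 383, 348 and 398 normalised counts against 809.2, 814.7 and 758.6 (-1.08 ± 0.06, adjusted p = 1.37e-09). With Nrf2 its log2 fold change was -0.63 ± 0.06 (adjusted p = 6.32e-07). *Cdkn1b*, the gene for p27, fell with Nrf1 (-0.36 ± 0.06, adjusted p = 9.58e-05) and likewise with Nrf2 (-0.27 ± 0.06, adjusted p = 0.00145). The 4 markers of cycling cells were all lower with each factor, with summed levels of 3016 to 3063 against 4576 to 4612 for Nrf1 and of 3691 to 3758 against 4879 to 4936 for Nrf2.

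Markers of other cell types also moved between the groups. The shares over all genes were 28.9% higher and 28.3% lower with Nrf1, and 24.7% higher and 21.8% lower with Nrf2. All 8 fibroblast markers were lower with Nrf1 and 7 of 8 with Nrf2. Endothelial markers were lower for 5 of 6 genes with Nrf1 and 4 of 6 with Nrf2, with summed levels of 769.0 to 841.8 against 1048 to 1096 and of 795.8 to 948.9 against 1117 to 1173. Of the 8 cardiomyocyte markers, 1 was higher and 5 lower with Nrf1 (summed level 76149 to 76613 against 89183 to 98677), whereas 5 were higher and 2 lower with Nrf2 (107318 to 111136 against 95464 to 105211). Between Nrf2 and Nrf1, 7 of 8 fibroblast markers were higher with Nrf2 and 1 lower (summed level 66238 to 71737 against 32466 to 34996). Of the 8 cardiomyocyte markers, 6 were higher and 1 lower (111585 to 115404 against 84998 to 85546). Endothelial markers were higher for 1 of 6 genes and lower for 1. All genes tested gave 25.2% higher and 24.5% lower. The part of these shifts in cell type markers in the levels of the p53 targets and apoptosis genes was not tested in any comparison.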

How the data were processed

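NRVM libraries of the LacZ, Nrf1 and Nrf2 groups were sequenced as 75-bp single-end reads. According to the submitters' processing notes and the study's methods, the authors ran FastQC 0.11.4, aligned the reads to Rnor_6.0 of the rat with HISAT2 2.0.4, removed duplicates with SAMtools 0.1.18, which can compress highly expressed genes, counted genes with featureCounts 1.6.0 and compared groups with edgeR 3.20.5. The signal the authors deposited, in 1 table per pair of groups, is the mean over 3 libraries of read counts divided by size factors. The tables also hold the authors' fold changes and p-values, which were not used.

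Reads per library were recovered from the digits of the means. The lowest means recur at the value of 1 read of each library, and each group occurs in 2 tables with different size factors, which left 1 set of whole reads for 99.993% of LacZ genes and 99.888% of Nrf1 and Nrf2 genes. Recovered libraries carry a group but no replicate number and are numbered by depth. Libraries of a group differed beyond counting error (chi-square over its degrees of freedom 1.50 to 5.00 in 9 pairs). Each pair of groups was tested with limma 3.58.1 (R 4.3.3, trended variance) on log2(normalised count + 0.5), for genes whose mean reached 1 in at least 1 group, with Benjamini-Hochberg adjustment at 0.05, so that fold changes of low genes are understated. Recovery and test were checked on simulated data.

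The 8 genes, the gene lists and the tests were chosen with earlier results of these data known. Named beyond the 8 were *Mdm4*, *Nfe2l2* and, per list and comparison, genes from the 3 largest changes in each direction with a mean of at least 20, with their values in the other comparisons, and some genes under this rule are not reported here. *Pmaip1*, *Fas*, *Tnfrsf10b*, *Apaf1* and *Cdkn2a* are in 2 lists each. The alternatives were a pseudocount of 2, scaling by total reads, a mean of at least 10, 1 fit over 9 libraries, leaving out each library, and, for the ratio of means, re-centring and adding 1.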

Additional observations from a re-analysis of the deposited data

How the results depend on the processing

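For the 8 genes in the 3 comparisons, 96 of 96 values under a pseudocount of 2, scaling by total reads, a mean of at least 10 or a fit over 9 libraries stayed on the same side of the threshold. Leaving out 1 library changed 9 of 144 calls, all of them *Bcl2l1* and *Mcl1* between Nrf2 and LacZ. When only genes whose mean reached 10 in a group were counted, the number of genes whose means differed by over 1.5-fold was 3432 in place of 5826 for Nrf1, 2408 in place of 4663 for Nrf2, and 2012 in place of 4295 for Nrf2 against Nrf1, with fewer genes counted by construction. Leaving out each library gave 6992 to 7378 calls for Nrf1 against LacZ (7795 with all), 5405 to 6148 for Nrf2 against LacZ (6430) and 5995 to 6357 for Nrf2 against Nrf1 (6846). Scaling by total reads moved the calls of Nrf2 against LacZ from 3417 higher and 3013 lower to 2649 higher and 4063 lower, and the median of all genes tested from 0.00 to -0.09. No paired analysis was possible because the recovered libraries carry no replicate number. The depth limits *Bcl2*, with 324 to 400 reads per group.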
